A study of Mus musculus with 6 samples.

Results

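The genes described here encode 9 surface proteins by which T cells show activation, adhere to partner cells and receive costimulation. They were taken by symbol from the deposited table of 11162 genes, in which all 9 were found: Cd69, Cd83, Cd44, Cd28, Icos, Cd2, Cd48, Cd226 and Slamf6. All 9 reached the mean RPKM of 1 over the libraries that was required for testing, as did 9351 genes in all. RPKM divides the reads of a gene by its length and by the total reads of the library, so it allows levels to be compared between genes.

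RNA had been sequenced from naive CD8 T cells of mouse spleen. The mice carried Nur77-GFP, written in full as Tg(Nr4a1-EGFP)GY139Gsat, a transgene that makes green fluorescent protein under regulatory sequence of Nr4a1, the gene of the T-cell receptor-induced protein Nur77. All cells had been sorted as CD8+ CD44lo CD62Lhi Qa2hi OT-I, where OT-I is a transgenic T-cell receptor of fixed specificity, and then split by reporter brightness into Nur77-GFPhi (GFP-hi) and Nur77-GFPlo (GFP-lo), with 3 libraries of each. The comparison asks how these markers differ between naive cells that differ in reporter brightness. The age of the mice, any treatment and any pooling of animals are not given in the labels. Nothing states that the libraries came from separate mice, so p-values measure only the spread between these samples, which may be technical.

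T cells are activated when the T-cell receptor signal is joined by costimulation. CD28, which binds CD80 and CD86, and ICOS, which binds ICOS ligand, recruit phosphoinositide 3-kinase. CD2 and its mouse ligand CD48 hold T cells to their partners. SLAM family receptors such as Ly108, the product of Slamf6, bind their own kind on other cells and signal through the adaptor SAP. CD226 competes with CD96 and TIGIT for the nectin-like ligand CD155. CD69 appears within hours of stimulation and holds cells in lymphoid tissue by removing the sphingosine 1-phosphate receptor S1PR1 from the surface, CD83 is induced on activated lymphocytes and dendritic cells, and CD44 binds hyaluronan and marks antigen-experienced cells.

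Libraries were deep and the cells carried the markers of their label. Because low RPKM values move in steps of a whole read, depth could be worked out, and was 26172000 to 35940000 reads per library; at these depths 93.9% to 95.5% of low values came within 0.1 of a whole number of reads. Cd8b1 had 791 to 836 RPKM in GFP-hi and 785 to 839 RPKM in GFP-lo libraries, and Cd3e had 199 to 209 RPKM in GFP-hi and 192 to 203 RPKM in GFP-lo libraries. Nr4a1 itself did not follow the sort, with 56.6, 90.9 and 37.0 RPKM in GFP-hi against 63.1, 84.9 and 33.8 RPKM in GFP-lo libraries, so it gave no check of the labels. Replicate 2 of both populations stood apart by its heat-shock genes, whose summed RPKM over 10 genes was 4470 in GFP-hi replicate 2 and 4847 in GFP-lo replicate 2, against 1273 to 1488 in the other libraries. Without these 2 libraries none of the 9 genes passed (limma), and each kept its sign.

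Of the 9 genes, Cd83 passed the test and was higher in GFP-hi cells, while the other 8 did not (limma on log2(RPKM + 1), Benjamini-Hochberg adjusted p under 0.05 over all genes tested). Over all 9351 genes, 3.95% passed. In 5 of the 9 genes (Cd83, Slamf6, Icos, Cd48 and Cd2) the 3 GFP-hi libraries all lay above the 3 GFP-lo libraries. Groups that did not overlap were found in 26.9% of all genes tested, with GFP-hi above in 17.1% and below in 9.84%. Log2 fold changes (log2FC), given throughout as GFP-hi over GFP-lo on the log2(RPKM + 1) scale, were positive in 7 of the 9 genes and in 55.5% of all genes. Their median was 0.07 over the 9 genes and 0.02 over all genes.

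**Figure D1:**
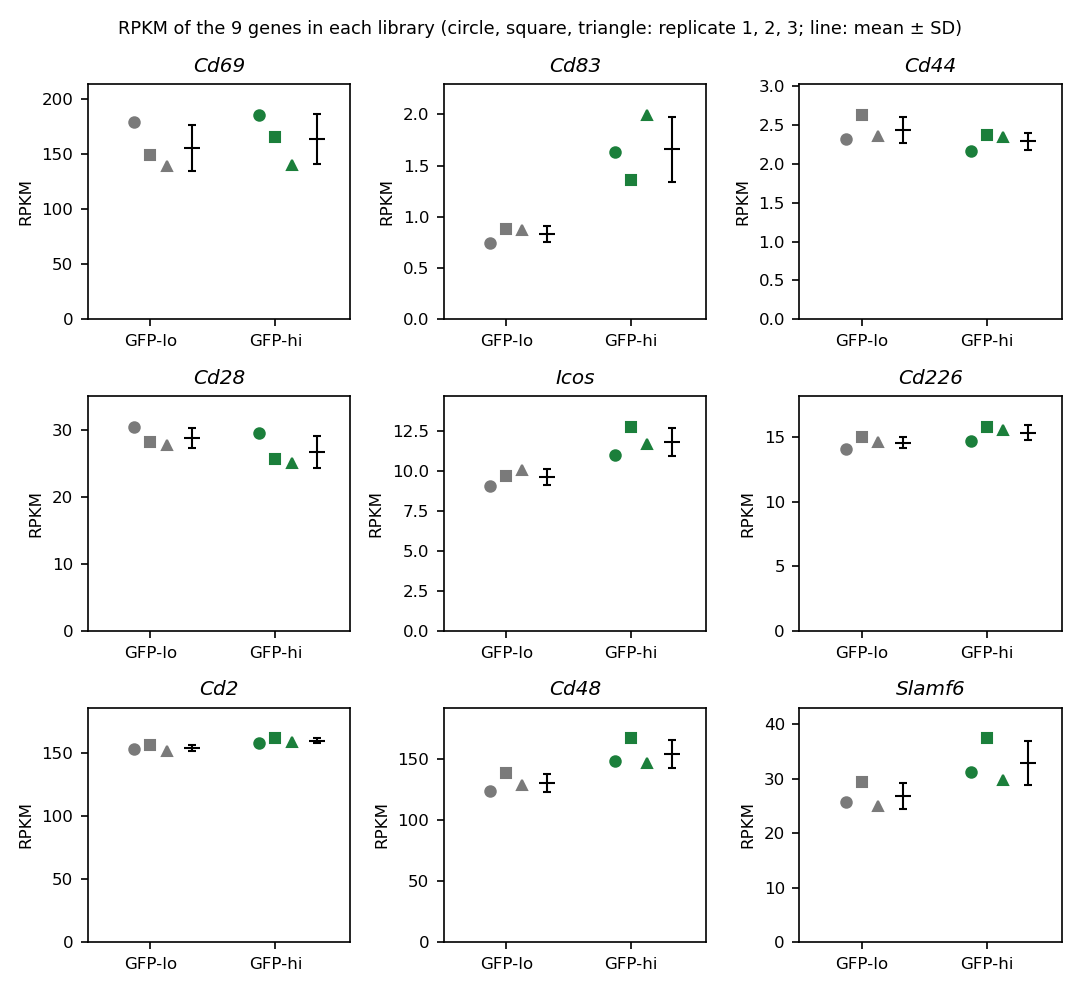
RPKM (linear axis from 0) of each of the 9 genes in the 3 GFP-lo (grey) and 3 GFP-hi (green) libraries, with the mean ± SD of each group beside the points. The 3 GFP-hi values lie above the 3 GFP-lo values for Cd83, Icos, Cd2, Cd48 and Slamf6, and the groups overlap for Cd69, Cd44, Cd28 and Cd226.

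Levels spanned a wide range. Cd69, Cd2 and Cd48 were abundant, with means over the 6 libraries of 160, 156 and 142 RPKM, each above 98.6% of tested genes. Slamf6 (29.8 RPKM), Cd28 (27.7 RPKM), Cd226 (14.95 RPKM) and Icos (10.7 RPKM) were intermediate. Cd44 (2.36 RPKM) and Cd83 (1.25 RPKM) were low, above about 12.98% and 2.72% of tested genes. In this order, Cd69 and Cd2 overlapped over the libraries of both populations and did not differ beyond their spread. Cd2 and Cd48 overlapped in GFP-hi but not in GFP-lo libraries, and Slamf6 and Cd28 in GFP-lo but not in GFP-hi libraries.

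Among the activation markers, Cd83 (Entrez 12522; GRCm38 chromosome 13, 43785112 to 43803133) had 1.63, 1.36 and 1.99 RPKM in GFP-hi and 0.745, 0.886 and 0.873 RPKM in GFP-lo libraries. All 3 GFP-hi libraries were above all GFP-lo libraries, and the lowest GFP-hi value was that of replicate 2. Means were 1.66 ± 0.317 and 0.835 ± 0.0779 RPKM (SD, n = 3 each), a linear ratio of 1.99. The log2FC was 0.53 (standard error 0.10, 95% interval 0.30 to 0.76, limma adjusted p = 0.028). The mean of the GFP-lo libraries lay under the required RPKM of 1, so the gene was tested because of its level in GFP-hi; with no such requirement the adjusted p was 0.034 (limma). With a pseudocount of 0.1 in place of 1 the log2FC was 0.90 (limma adjusted p = 0.026).

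These low values rested on about 119, 119 and 151 reads in GFP-hi and 69, 65 and 59 reads in GFP-lo libraries, taking the exons of all annotated transcripts as the gene's length. Exact Poisson 95% intervals, which cover counting error only, ran from 98.6 to 177 reads over the GFP-hi and from 44.9 to 87.3 reads over the GFP-lo libraries. These intervals were not scaled for the differing depth of the libraries, so they do not compare levels between the populations. The call was lost when GFP-hi replicate 1 (limma adjusted p = 0.091), GFP-hi replicate 3 (0.079) or any of the 3 GFP-lo libraries (0.074 to 0.092) was left out, and kept without GFP-hi replicate 2 (0.021). Without both heat-shock-high libraries the log2FC was 0.63 (limma adjusted p = 0.077).

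Cd69 (Entrez 12515; chromosome 6, 129267324 to 129275375) was the most abundant of the 9 genes and did not pass. It had 185, 166 and 140 RPKM in GFP-hi and 179, 149 and 139 RPKM in GFP-lo libraries. The groups overlapped almost fully, and the spread within each group, from 139 to 185 RPKM over all libraries, was larger than the distance between the means of 164 ± 22.7 and 156 ± 20.6 RPKM (SD, n = 3 each). Its log2FC was 0.07 with a 95% interval from -0.21 to 0.35 (limma adjusted p = 0.81). The within-group SD on the log2 scale, 0.194, was above that of 92.3% of tested genes. Leaving out GFP-hi replicate 1 (-0.02) or GFP-lo replicate 3 (-0.0061) turned its sign. The ratio of Cd83 to Cd69 RPKM, which was not tested, was 0.0088, 0.0082 and 0.0142 in GFP-hi against 0.0042, 0.0059 and 0.0063 in GFP-lo libraries.

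Cd44 (Entrez 12505; chromosome 2, 102811141 to 102901669) encodes a protein on which the cells had been sorted as low. It had 2.17, 2.37 and 2.34 RPKM in GFP-hi and 2.32, 2.62 and 2.36 RPKM in GFP-lo libraries. Groups overlapped, with means of 2.29 ± 0.109 and 2.43 ± 0.165 RPKM (SD, n = 3 each). The log2FC was -0.06 with a 95% interval from -0.22 to 0.10 (limma adjusted p = 0.69).

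Cd28 and Icos belong to the same receptor family and lie in the same cluster of genes, with Ctla4 between them, on chromosome 1 (60746388 to 61000322, 253.9 kilobases). Cd28 (Entrez 12487; 60746388 to 60773359) had 29.4, 25.6 and 25.1 RPKM in GFP-hi and 30.4, 28.2 and 27.7 RPKM in GFP-lo libraries. GFP-hi replicate 1 lay within the GFP-lo range, and the other 2 GFP-hi libraries lay below it. For Cd28 the log2FC was -0.11 with a 95% interval from -0.27 to 0.06 (limma adjusted p = 0.48).

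Icos (Entrez 54167; 60960773 to 61000322) had 11, 12.8 and 11.7 RPKM in GFP-hi and 9.04, 9.70 and 10.04 RPKM in GFP-lo libraries. The groups did not overlap, with means of 11.8 ± 0.888 and 9.60 ± 0.510 RPKM (SD, n = 3 each), 23.2% apart. The log2FC was 0.27 (standard error 0.070, 95% interval 0.11 to 0.43), but the limma adjusted p was 0.075. Icos passed in 2 of 18 alternative fits, with the heat-shock level as a covariate (limma adjusted p = 0.045) and with array quality weights (0.019). It did not pass in the others, among them those without 1 library (0.102 to 0.191) and the one without both heat-shock-high libraries (log2FC 0.23, limma adjusted p = 0.239). Icos relative to Cd28 was 0.374, 0.498 and 0.466 in GFP-hi and 0.297, 0.345 and 0.363 in GFP-lo libraries, as the ratio of their RPKM. The groups of this ratio did not overlap; the ratio was not tested. Ctla4, the inhibitory receptor encoded between them, had 3.09, 2.89 and 1.63 RPKM in GFP-hi against 1.85, 1.35 and 1.07 RPKM in GFP-lo libraries (limma adjusted p = 0.16), with overlapping groups.

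**Figure D2:**
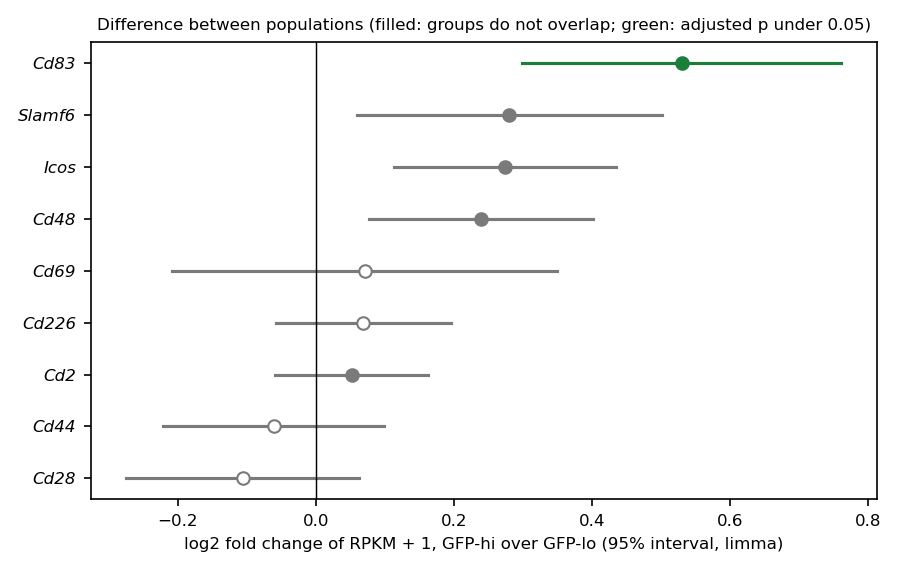
Log2 fold change of RPKM + 1, GFP-hi over GFP-lo, for the 9 genes with 95% intervals from limma; filled points mark genes whose groups do not overlap and green marks an adjusted p under 0.05. Cd83 is the green point at 0.53, Slamf6, Icos and Cd48 lie between 0.24 and 0.28, and the intervals of Cd69, Cd226, Cd2, Cd44 and Cd28 include 0.

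Neither gene of the adhesion pair CD2 and CD48 passed, and Cd48 had the larger fold change. Cd2 (Entrez 12481; chromosome 3, 101275908 to 101287939) had 158, 161 and 158 RPKM in GFP-hi and 153, 156 and 152 RPKM in GFP-lo libraries. The groups did not overlap, but the difference was 3.70% of the GFP-lo mean, and Cd2 was among the steadiest genes, its within-group SD on the log2 scale (0.0196) being above that of only 0.727% of tested genes. The log2FC was 0.05 with a 95% interval from -0.06 to 0.16 (limma adjusted p = 0.61). The interval is wider than this SD alone would give, because limma moderates it towards the spread of genes at the same level.

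Cd48 (Entrez 12506; chromosome 1, 171681245 to 171705258) had 148, 167 and 147 RPKM in GFP-hi and 124, 138 and 129 RPKM in GFP-lo libraries. All GFP-hi libraries lay above all GFP-lo libraries, and replicate 2 was the highest in both populations. Means of the groups were 154 ± 11.2 and 130 ± 7.38 RPKM (SD, n = 3 each), 18.3% apart. Cd48 had a log2FC of 0.24 (standard error 0.071, 95% interval 0.08 to 0.40, limma adjusted p = 0.11). It was 0.22 without both heat-shock-high libraries (limma adjusted p = 0.15), and 0.25 with the heat-shock level as a covariate, where it passed (0.020).

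Slamf6 (Entrez 30925; chromosome 1, 171917458 to 171948958) did not pass either. It had 31.1, 37.4 and 29.8 RPKM in GFP-hi and 25.7, 29.4 and 25.04 RPKM in GFP-lo libraries. The groups did not overlap, though GFP-lo replicate 2 came close to GFP-hi replicate 3, and replicate 2 was again the highest of each population. Means of the groups were 32.8 ± 4.05 and 26.7 ± 2.37 RPKM (SD, n = 3 each), 22.6% apart. Slamf6 had a log2FC of 0.28 (standard error 0.096, 95% interval 0.06 to 0.50, limma adjusted p = 0.16). With the heat-shock level as a covariate the value was 0.29 and passed (limma adjusted p = 0.017), and without both heat-shock-high libraries it was 0.25 and did not (0.13). The part of the heat-shock level in these results was not tested beyond these fits.

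Cd48 and Slamf6 lie in a cluster of 7 SLAM family genes on chromosome 1 (171558718 to 171948958, 390.2 kilobases), with Slamf1 and Cd84 between them, and across the 6 libraries their log2 values had a Pearson's r of 0.97. The r of their deviations from the group means was 0.94. Cd2, on another chromosome, had an r of 0.96 with Cd48 and 0.97 with Slamf6, and all 3 were highest in replicate 2 of each population. These correlations over 6 libraries, which also share the difference in heat-shock genes, are descriptions. Promoter sequences of RefSeq on GRCm38.p6, the build that the submitters' processing notes name as mm10, were examined here for 3 of the 9 genes (Cd44, Cd48 and Slamf6). The 250 bases before the start site that the promoter table uses are shown for the 2 genes of the cluster whose levels varied together, for Cd48 at chr1:171681742-171681991 and for Slamf6 at chr1:171917212-171917461, both on the plus strand and 5′ to 3′. For Cd48 this start site, at 171681992, is not the outer end of the RefSeq gene given above, which lies 747 bases further upstream, so the Cd48 window lies within the gene's RefSeq span. The first Cd48 transcript of GENCODE M21 starts at 171682009, 17 bases downstream of the site used. For Slamf6 the outer end of the RefSeq gene lies 4 bases upstream of the site used. Capitals mark the bases that matched a motif.

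Cd48: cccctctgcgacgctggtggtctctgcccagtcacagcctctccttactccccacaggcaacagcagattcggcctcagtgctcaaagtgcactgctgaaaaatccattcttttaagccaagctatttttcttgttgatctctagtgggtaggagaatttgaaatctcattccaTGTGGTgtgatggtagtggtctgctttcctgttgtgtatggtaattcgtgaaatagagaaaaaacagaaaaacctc

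Slamf6: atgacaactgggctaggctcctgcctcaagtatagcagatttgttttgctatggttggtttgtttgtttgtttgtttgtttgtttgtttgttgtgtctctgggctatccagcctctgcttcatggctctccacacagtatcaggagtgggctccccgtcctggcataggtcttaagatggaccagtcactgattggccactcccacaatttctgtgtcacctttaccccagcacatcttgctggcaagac

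In these windows 5 motifs were searched on both strands. They were AAAGGTCA, the element bound by Nur77 monomers, which 1.34% of 32851 promoter windows of the same length hold, TGANTCA of Fos and Jun dimers (6.75%), TGTGGT of Runx proteins (14.0%), CCGGAAG of ETS proteins (6.91%) and TGACGTCA of CREB and ATF proteins (1.55%). The match found was TGTGGT in the Cd48 window, starting 76 bases before the start site of the promoter table (171681992); the Slamf6 and Cd44 windows held none of the letters searched. An exon of the transcript A630035G10Rik, annotated on the other strand, overlaps the Cd48 window. No exon of Cd48 in GENCODE M21 lies in this window, and overlap of their exons outside it was not examined. Whether reads were counted by strand is not given in the sources used here.

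The other receptors of the cluster had differing patterns. Slamf1, the self-binding receptor that names the family, rose from 1.90, 1.99 and 1.97 RPKM in GFP-lo to 3.09, 3.64 and 3.40 RPKM in GFP-hi libraries. The groups were far apart for this gene, with means of 3.38 ± 0.280 and 1.95 ± 0.0484 RPKM (SD, n = 3 each) and a log2FC of 0.57 (standard error 0.071, limma adjusted p = 0.0055). Its call was kept without each of the 6 libraries in turn (limma adjusted p up to 0.033) and lost without both heat-shock-high libraries (0.064, log2FC 0.53). Cd84 did not pass although its groups were separate, with 17.9, 18.3 and 17.9 RPKM in GFP-hi against 16.1, 16.5 and 16.9 RPKM in GFP-lo libraries (limma adjusted p = 0.23).

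Ly9, the most abundant of the other cluster genes, had 54.3, 36.9 and 56.4 RPKM in GFP-hi and 51.1, 54.9 and 59.3 RPKM in GFP-lo libraries (limma adjusted p = 0.56), and the low value was that of GFP-hi replicate 2. Slamf7 and Cd244a had mean levels under 1 RPKM and were not tested. Slamf7 had 1.09, 0.905 and 1.76 RPKM in GFP-hi and 0.400, 0.619 and 0.590 RPKM in GFP-lo libraries, whereas the groups of Cd244a overlapped. Sh2d1a, which encodes the SAP adaptor of SLAM receptors and lies on chromosome X, rose from 7.17, 7.62 and 8.22 RPKM in GFP-lo to 9.11, 10.1 and 10.5 RPKM in GFP-hi libraries. Its log2FC was 0.33 (standard error 0.072, limma adjusted p = 0.048), and the call was lost without each of the 6 libraries (limma adjusted p 0.069 to 0.17), without both heat-shock-high libraries (0.216) and with each of the 3 other scalings (0.054 to 0.057). Of the list of SLAM receptors and adaptors, 4 genes were tested, of which Slamf1 and Sh2d1a passed, both higher. Over all genes tested, 3.95% passed and 2.46% passed as higher. The median log2FC was 0.22 over these 4 genes and 0.02 over all genes.

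**Figure D3:**
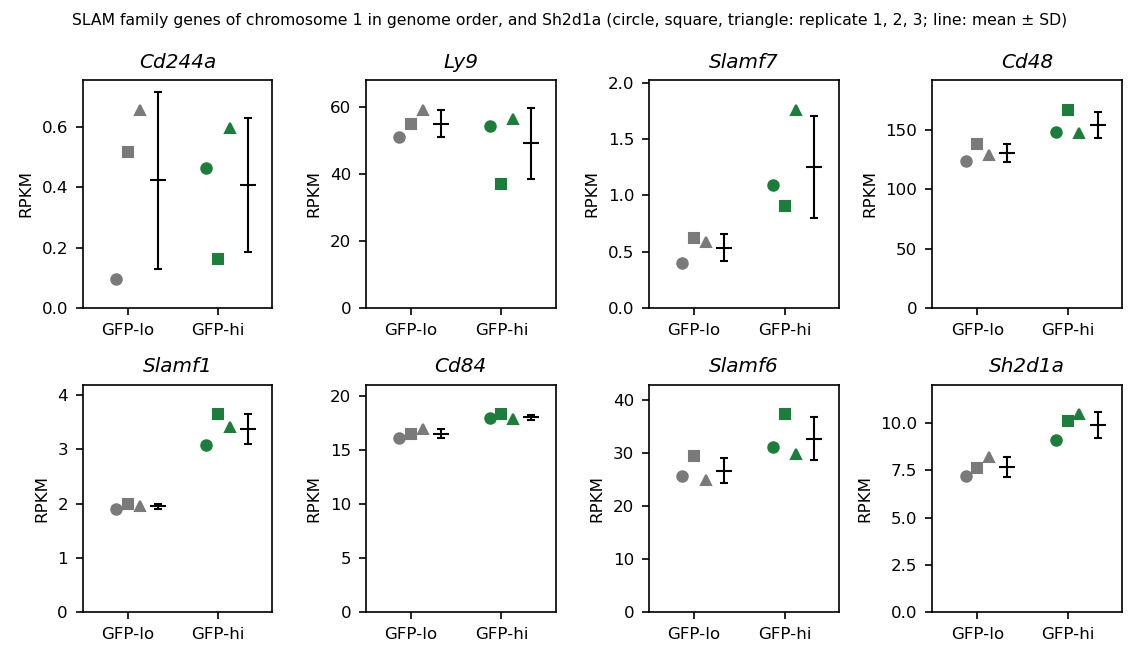
RPKM (linear axes from 0) of the 7 SLAM family genes of chromosome 1, in genome order, and of Sh2d1a in GFP-lo (grey) and GFP-hi (green) libraries, with mean ± SD. The groups are separate for Slamf7, Cd48, Slamf1, Cd84, Slamf6 and Sh2d1a and overlap for Cd244a and Ly9.

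Cd226 (Entrez 225825) did not pass. It had 14.7, 15.8 and 15.5 RPKM in GFP-hi and 14.1, 15.01 and 14.6 RPKM in GFP-lo libraries, with means of 15.3 ± 0.567 and 14.6 ± 0.457 RPKM (SD, n = 3 each). The groups overlapped, and the log2FC was 0.07 with a 95% interval from -0.06 to 0.20 (limma adjusted p = 0.54). Without both heat-shock-high libraries the log2FC was 0.07 for Cd226, 0.03 for Cd69, 0.05 for Cd2, -0.04 for Cd44 and -0.09 for Cd28 (limma adjusted p 0.642 to 0.945). Cd96, its competitor for CD155, was far more abundant, with 150, 163 and 148 RPKM in GFP-hi and 130, 135 and 129 RPKM in GFP-lo libraries. The Cd96 groups did not overlap (log2FC 0.22, limma adjusted p = 0.081). As a ratio of RPKM, Cd226 to Cd96 was 0.0971 to 0.105 in GFP-hi and 0.108 to 0.113 in GFP-lo libraries; the ratio was not tested. Of the 3 tested genes of the CD226 list, none passed and 1 had an unadjusted p under 0.05 (limma).

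Further partners of the 9 genes were counted from lists. Of 87 names on 9 lists, older symbols included, 63 were tested, and limma called 3 higher (Slamf1, Sh2d1a and Cd81) and 1 lower (Cd274), against 2.46% higher and 1.49% lower over all genes tested. The median log2FC was -0.0038, and 21 of the 63 had an unadjusted p under 0.05, against 20.2% of all genes. Cd81, a tetraspanin that organizes receptors in the membrane, had the largest fold change of these, with 1.75, 2.37 and 2.14 RPKM in GFP-hi and 0.583, 0.722 and 0.893 RPKM in GFP-lo libraries. Its log2FC was 0.83 (standard error 0.10, limma adjusted p = 0.0055); its GFP-lo mean lay under 1 RPKM, so it was tested because of its level in GFP-hi. Its call was kept without each of the 6 libraries in turn (limma adjusted p up to 0.034) and lost without both heat-shock-high libraries (0.075).

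Cd274, which encodes PD-L1, the ligand of the CD28-family receptor PD-1, fell from 16.2, 14.9 and 17.8 RPKM in GFP-lo to 11.6, 12.2 and 13.5 RPKM in GFP-hi libraries. The groups did not overlap, the log2FC was -0.36 (standard error 0.080, limma adjusted p = 0.049), and the call was lost without each of the 6 libraries (limma adjusted p 0.061 to 0.15) and without both heat-shock-high libraries (0.12). It was the called gene among the 6 tested of the CD28 family and B7 ligand list, of which 4 had an unadjusted p under 0.05.

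The signalling genes below these receptors showed no call. Of 17 genes of CD28 and ICOS signalling, among them the exchange factor Vav1 and the phosphoinositide 3-kinase subunit gene Pik3cd, limma called none, 3 had an unadjusted p under 0.05 and 5 had a positive log2FC. The lowest p was that of Pik3cb, a catalytic subunit gene, with 1.54, 1.11 and 1.46 RPKM in GFP-hi and 1.90, 1.92 and 2.25 RPKM in GFP-lo libraries (limma adjusted p = 0.084). All 4 genes of the list of regulators of Icos mRNA, which encode the Roquin and Regnase proteins that bring about mRNA decay, had negative log2FC values without a call (median -0.17, 2 with an unadjusted p under 0.05). Of these, Zc3h12a had 4.95, 5.71 and 5.55 RPKM in GFP-hi and 7.15, 6.05 and 6.57 RPKM in GFP-lo libraries (limma adjusted p = 0.13). Over all genes tested, 55.5% had a positive log2FC. Any part of these regulators in the level of Icos was not tested.

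Among the cytoplasmic partners of CD2, none of 5 genes passed and 2 had an unadjusted p under 0.05 (limma). The kinase gene Fyn was the lowest in p, with 64.8, 62.8 and 63.5 RPKM in GFP-hi and 58.2, 53.8 and 56.9 RPKM in GFP-lo libraries (limma adjusted p = 0.12). Of 18 linkers of CD44 and other adhesion receptors, Cd81 passed and 4 had an unadjusted p under 0.05. On the list of CD69 and the sphingosine 1-phosphate axis none of 6 genes passed and 2 had an unadjusted p under 0.05 (limma). S1pr1 had 282, 267 and 267 RPKM in GFP-hi and 303, 269 and 281 RPKM in GFP-lo libraries, with overlapping groups (limma adjusted p = 0.62). Gnai2, a G-protein subunit gene with the lowest p there, had 92.7, 97.7 and 89.6 RPKM against 81.8, 85.1 and 84.5 RPKM (limma adjusted p = 0.17). The genes listed as partners of CD83 were not analysed here.

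**Figure D4:**
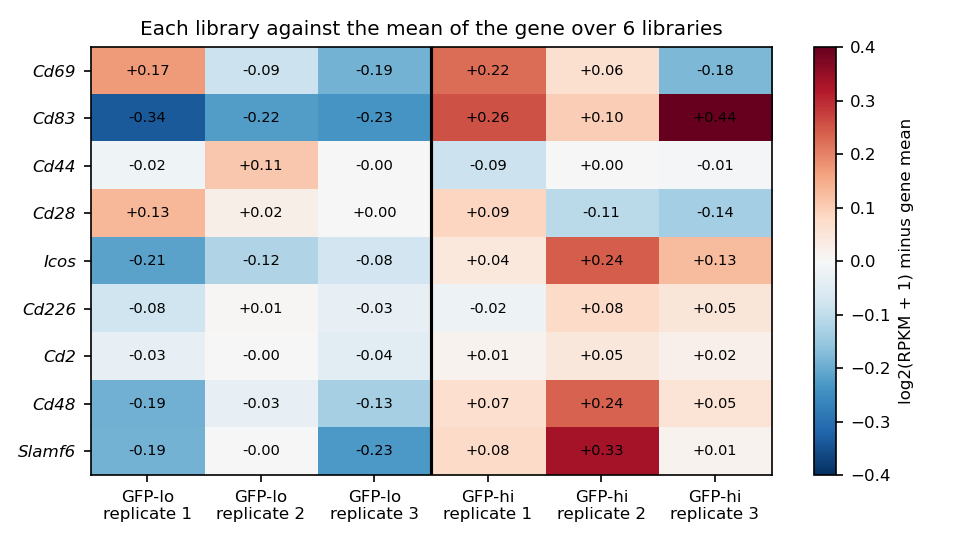
Log2(RPKM + 1) of each of the 9 genes in each library minus the mean of the gene over the 6 libraries, printed in each cell (blue below, red above the mean). Cd83, Icos, Cd48 and Slamf6 are below their mean in the GFP-lo and above it in the GFP-hi libraries, while Cd69 and Cd28 are highest in replicate 1 of each population.

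Over the 6 libraries the 9 genes fell into different patterns. Deviations from the group means of Cd69 and Cd28 had an r of 0.89, and both were highest in replicate 1 of each population, whereas those of Cd28 and Cd226 had an r of -0.88. Cd83 was apart from these in its deviations, which had an r of -0.62 with Slamf6 and -0.47 with Cd48. The r of its log2 values, which also hold the difference between the populations, was positive, at 0.56 with Slamf6 and 0.70 with Cd48. Replicates share a number by their order in the records, and the labels link no libraries across populations. Some same-numbered libraries were alike, such as replicate 1 for Cd69, with deviations of 0.187 in GFP-hi and 0.206 in GFP-lo. Others were not, such as replicate 2 for Cd83, with -0.166 in GFP-hi and 0.0407 in GFP-lo. Whether same-numbered libraries belong together was not tested. Each r rests on 6 libraries, and the deviations also use group means taken from those libraries.

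The genes most like each of the 9 were sought among 9009 tested genes by Pearson's r of log2(RPKM + 1) over the 6 libraries, as a description. For Cd83 Kpna3 (r = 0.990) is given here. For Icos they were Iah1 (0.999) and Fam118b (0.995). For Cd48 they were Pigx (0.999), whose product acts in the synthesis of the glycolipid anchor of the kind by which CD48 is held in the membrane, and the transcription factor gene Foxp1 (0.997). For Slamf6 they were Fkbp1a (0.998) and Taf9 (0.997), and for Cd2 Gyg (0.995) and Dynlrb1 (0.991). Cd69 was most like Nsmce3 (0.981) and Scaf4 (0.977), Cd28 most like Ago3 (0.982) and Tacc1 (0.980), Cd44 most like Zfp456 (0.976) and Uspl1 (0.975), and Cd226 most like Prdx3 (0.992) and Eef1akmt1 (0.992).

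Lists of genes outside these pathways are given as measured. Summed RPKM of 10 cell cycle genes was 37.0, 31.1 and 39.0 in GFP-hi and 8.14, 9.24 and 9.07 in GFP-lo libraries. Of 8 tested, 7 were called higher by limma, against 2.46% of all genes tested. However, 5 of these 7 had GFP-lo means under 1 RPKM and were tested because of their level in GFP-hi. The other 2 called genes were Stmn1, with 14.1, 12.8 and 14.1 RPKM in GFP-hi and 3.84, 3.92 and 3.16 RPKM in GFP-lo libraries, and Rrm2, with 6.27, 5.16 and 6.54 RPKM in GFP-hi and 1.61, 1.90 and 1.49 RPKM in GFP-lo libraries. Over the GFP-hi libraries this sum had the order of Cd83, lowest in replicate 2 and highest in replicate 3. In bulk samples more cells of a kind and more RNA per cell cannot be told apart, and the part of cycling cells in the level of Cd83 was not tested. Summed RPKM of 13 immediate early genes was 2473, 3587 and 2570 in GFP-hi and 3259, 4120 and 3244 in GFP-lo libraries. Of the 13 tested, 2 had a positive log2FC, against 55.5% of all genes, and none was called, against 3.95%. Junb had the lowest p of them, with 542, 750 and 578 RPKM in GFP-hi and 824, 944 and 808 RPKM in GFP-lo libraries. The Junb groups did not overlap (log2FC -0.47, limma adjusted p = 0.080).

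Markers of other cells that carry these proteins ranged from under 1 RPKM to the level of abundant genes, and some of the listed names were not analysed here. Of 10 myeloid and dendritic cell markers, Itgam and Flt3 were analysed, with a summed RPKM of 0.246 to 0.798 in GFP-hi and 0.261 to 1.05 in GFP-lo libraries. Of 9 B cell markers 3 were analysed, with sums of 12.7 to 14.2 RPKM in GFP-hi and 11.05 to 11.5 RPKM in GFP-lo libraries. Nearly all of this was Cd79b (mean 12.0 RPKM, limma adjusted p = 0.075), while Ms4a1 was at most 0.597 RPKM and Cr2 at most 0.271 RPKM. Of 6 CD4 T cell markers 2 were analysed, and they went in opposite directions. Cd40lg (mean 28.8 RPKM) was called lower in GFP-hi (limma adjusted p = 0.011), and Izumo1r, whose GFP-lo mean lay under 1 RPKM, was called higher (0.00087); their summed RPKM was 17.2 to 26.2 in GFP-hi and 36.3 to 47.8 in GFP-lo libraries. Of 7 natural killer cell markers Nkg7, which CD8 T cells also express, was analysed, with 298 to 316 RPKM in GFP-hi and 276 to 284 RPKM in GFP-lo libraries (limma adjusted p = 0.21). Of 6 erythroid markers Hba-a1 was analysed, with 0.047 to 1.94 RPKM in GFP-hi and 0.393 to 1.48 RPKM in GFP-lo libraries. Of 10 memory or effector markers 7 were analysed, with sums of 123 to 139 RPKM in GFP-hi and 139 to 157 RPKM in GFP-lo libraries; the most abundant was Il2rb (mean 68.4 RPKM, limma adjusted p = 0.13), and of these Gzmb was called higher and Cxcr3 lower by limma. The part of any of these cells in the levels of the 9 genes was not tested.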

How the data were processed

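Per the labels' protocols, sorted cells were lysed and frozen, cDNA was made with SMART-seq v4 and libraries with Nextera XT. Per the submitters' processing notes, STAR and mm10 were used; the read counter, annotation and gene filter are not given in the sources used here. Per the file headers, the deposited values are RPKM. Columns were matched to samples by title. Date-like symbols (14) were restored by Entrez ID from RefSeq.

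Genes whose RPKM averaged 1 or more were tested with limma 3.58.1 (R 4.3.3), lmFit and eBayes with trend, on log2(RPKM + 1), two-sided, Benjamini-Hochberg adjusted over 9351 genes, without covariate; the labels link no libraries across populations and replicate numbers follow record order, so no pairing was used. RPKM is no count, so no count model was used. The fit and the depth search were tested on simulated data. Depth came from single-transcript genes of GENCODE M21. Figures used matplotlib 3.10.9.

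The 9 genes, lists and alternatives were chosen with earlier results of these data known. Named were the 9 genes, called genes of each list or else its lowest p, neighbours in the gene clusters, and the 2 genes most like each of the 9, leaving out predicted genes. Vav1, Pik3cd, S1pr1 and the marker genes were added as examples after their values were seen. A gene that the rule would name is not reported here. Alternatives changed the pseudocount, filter, scaling, variance model, covariate and libraries.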

Additional observations from a re-analysis of the deposited data

How the results depend on the processing

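Depth did not limit the abundant genes; for Cd83 and Cd44, at 59 to 565 reads, it limits precision. Numbers of called genes moved by over 1.5 times, or to 0, in these fits. The ranges given below without 1 library also hold fits in which they moved less. Over all genes (369), they were 202 with a mean RPKM of at least 5, 1282 with array quality weights, 625 with the heat-shock level as a covariate, 90 without both heat-shock-high libraries and 134 to 298 without 1 library. Of the 9 genes (1 called), 0 were called with a mean RPKM of at least 5, where Cd83 was not tested, 2 with array quality weights (Cd83 and Icos), 4 with the heat-shock covariate (Cd83, Icos, Cd48 and Slamf6), 0 without both heat-shock-high libraries and 0 to 1 without 1 library. Of the 63 listed partners (4 called), 2 were called with no filter, 0 with a mean RPKM of at least 5, 2 without a variance trend, 13 with array quality weights, 0 without both heat-shock-high libraries and 2 to 3 without 1 library. Slamf1 and Cd81 were not tested in the fit with a mean RPKM of at least 5. Of the called genes, 62.3% were higher in the main fit and 52.1% with trimmed mean of M values scaling. No scaling moved the median of all genes by over 0.1. Cd83 kept its sign in 17 fits (0.44 to 0.90) and its call in 11, and Cd28, Cd44, Icos, Cd2, Cd48, Cd226 and Slamf6 kept their signs in each fit that tested them. Cd69 turned to -0.0224 when GFP-hi replicate 1 was left out and to -0.0061 for GFP-lo replicate 3, in a range of -0.0224 to 0.178 when 1 library was left out. Over the same 6 fits Nsmce3 ran from -0.0147 to 0.0681 and Scaf4 from -0.0254 to 0.0400. With array quality weights Nsmce3 turned to -0.0014 and Scaf4 to -0.0151. Scaf4 was also -0.0164 with quantile normalization, -0.0215 with trimmed means and -0.0137 in the 4 libraries low in heat-shock genes. Apart from fewer genes or samples tested, the cause was not tested.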
